A study of Mus musculus with 6 samples.

Results

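The cytosolic ribosomal protein genes were examined as a set across sorted midbrain nuclei of control mice and of mice in which Ogt was lowered. Members were the protein-coding RefSeq genes whose symbol is Rpl, Rps or Rplp followed by a digit, with Rpsa and without the Rps6k kinase genes. The rule gave 91 of 21900 protein-coding genes, spread over 19 chromosomes, and used no measured value. Accessible regions were assigned to a member when they overlapped its annotated bounds extended by 10000 bp on each side, which gave 362 of 193148 regions around 89 of the genes. Rpl10l and Rpl39l had no region. The symbol rule also takes in paralogs such as Rpl22l1 and Rps27l, genes named as retrocopies or pseudogenes, such as Rpl34-ps1, and Rps19bp1, whose product binds Rps19.

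The cytosolic ribosome consists of a small subunit, which reads the messenger RNA, and a large subunit, which joins amino acids. Their proteins are assembled with ribosomal RNA in near-equal amounts, and their genes are transcribed in nearly all cells. Many promoters of these genes start at a cytosine followed by pyrimidines, the TOP sequence through which the mTOR pathway and Larp1 control translation of their messages. In neurons ribosomes are needed for protein synthesis in the cell body and in dendrites.

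Chromatin accessibility was read by ATAC-seq, in which DNA open to a transposase is sequenced, in nuclei of the ventral tegmental area (VTA), a midbrain region that holds dopaminergic neurons. Mice labelled Ogtflox+/Y, called knockdown here, carried a floxed Ogt allele, and mice labelled Ogtflox-/Y, called control, did not. The sugar O-GlcNAc is added to nuclear and cytoplasmic proteins by the enzyme that Ogt encodes. Animals of both genotypes received AAV-TH-Cre, a virus for Cre recombinase named for the tyrosine hydroxylase gene, and AAV-DIO-H2B-EGFP, a Cre-dependent nuclear green fluorescent protein, and EGFP-positive nuclei were sorted. Both groups therefore carried Cre, which virus and promoter limit to the cells they reach, and ages and the time after injection were not given in the sources used here. Each group had 3 libraries. The labels do not say that these came from separate animals, so p-values measure the spread between libraries, which may be technical. The title of knockdown replicate 1 names the control genotype, against its genotype label, which was used.

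Libraries held 34384319 to 66853563 reads, of which 30.95% to 38.16% lay in regions. Levels are CPM, read counts scaled to the TMM-adjusted reads in regions, and 3 reads equalled 0.117 to 0.238 CPM, a floor that covers counting error only. Dopaminergic markers had a summed level of 210.4 to 414.6 CPM in control and 209.6 to 275.4 CPM in knockdown over 8 start regions. Th, for the rate-limiting enzyme of dopamine synthesis, made up most of this sum (172.3 to 378.7 CPM). Each of the others averaged 4.01 to 7.20 CPM in control, where the 6 GABAergic markers averaged 4.13 to 17.6 CPM. The sum thus mostly follows Th, and the share of dopaminergic nuclei was not tested. Th did not pass with TMM (-0.44, edgeR adjusted p = 0.076). Scaled by library totals or by loess curves it was called lower (-0.71 and -1.01, edgeR adjusted p = 0.0077 and 0.0019). Summed over 8 astrocyte markers, levels were 22.03 to 24.95 CPM in control and 66.31, 26.23 and 57.75 CPM in knockdown replicates 1 to 3. The 8 oligodendrocyte markers summed to 64.91 to 68.36 CPM in control and to 90.2, 46.36 and 59.88 CPM in knockdown, and the 6 GABAergic markers to 48.17 to 64.14 and to 78.38 to 97.91 CPM. By edgeR at an adjusted p under 0.05, 5 of 8 astrocyte, 4 of 8 oligodendrocyte and 4 of 6 GABAergic markers were higher in knockdown, 1 oligodendrocyte marker was lower, and none of these 22 markers was at 0 in a library. The part of these cell types in the results was not tested. Fewer cells of a type and less accessible chromatin per cell cannot be told apart in such bulk libraries. The Ogt start region was higher in knockdown (log2 fold change 0.61, edgeR adjusted p = 0.0032), and it does not check the deletion, since the position of the floxed exons was not given in the sources used here.

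Promoter sequences were read from RefSeq for GRCm38.p6, the assembly called mm10, and 70 of the 91 genes had an entry. The 100 bases before the annotated start are printed 5′ to 3′ for members the results turn on. Rpl38 had the largest rise at a start region, which is centred 511 bp past the start and does not hold the printed stretch. That stretch lies in another Rpl38 region (114668364 to 114668764), which rose by 0.48 on the log2 scale. Rps24, Rps12 and Rpl6 had large rises at a region just inside the gene. Rps6 holds an ETS core and the CG-palindrome, and Rpl41 was called lower at its start region. The Rps19 start region, centred 473 bp before the start, was lower but did not pass (edgeR adjusted p = 0.053). The next Rps19 region, which holds another annotated start, was called higher (edgeR adjusted p = 0.0497). Capitals mark matches to 5 motifs searched on both strands: the ETS core CCGGAA, the YY1 core AAGATGG, the GC box GGGCGG, the CG-palindrome CTCGCGA and the TATA box TATAAA.
Rpl38 (chr11:114668480-114668579, plus strand): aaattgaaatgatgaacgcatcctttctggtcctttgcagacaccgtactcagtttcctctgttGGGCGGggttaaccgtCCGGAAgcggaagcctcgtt
Rps24 (chr14:24490578-24490677, plus strand): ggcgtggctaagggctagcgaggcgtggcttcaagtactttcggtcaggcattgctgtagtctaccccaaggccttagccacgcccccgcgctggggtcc
Rps12 (chr10:23787210-23787309, minus strand): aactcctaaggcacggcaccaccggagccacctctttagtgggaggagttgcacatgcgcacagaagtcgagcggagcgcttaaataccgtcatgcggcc
Rpl6 (chr5:121204401-121204500, plus strand): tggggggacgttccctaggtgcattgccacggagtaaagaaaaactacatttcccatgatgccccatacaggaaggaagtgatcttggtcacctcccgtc
Rps6 (chr4:86857368-86857467, minus strand): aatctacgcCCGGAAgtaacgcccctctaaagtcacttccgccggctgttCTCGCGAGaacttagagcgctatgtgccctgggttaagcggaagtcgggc
Rps19 (chr7:24884492-24884591, plus strand): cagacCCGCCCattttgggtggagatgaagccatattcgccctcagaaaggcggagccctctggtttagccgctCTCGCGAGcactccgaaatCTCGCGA
Rpl41 (chr10:128549169-128549268, minus strand): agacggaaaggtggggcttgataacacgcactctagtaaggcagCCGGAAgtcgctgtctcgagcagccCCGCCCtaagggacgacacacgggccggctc

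The family's promoters shared features that the rule for members did not use. The CG-palindrome was present in 14 of 70 windows running from 250 bases before to 50 bases after the start, 20% against 2.66% of 17422 other coding genes. The ETS core was found in 47.1% of the windows against 18.96%, and the YY1 core in 12.9% against 6.34%. The GC box was nearly as frequent elsewhere, at 57.1% against 46.3%, and the TATA box was found in 11.4% against 13.4%. The annotated first base was C in 32.9% of members and in 13.7% of other genes. A C followed by at least 5 pyrimidines between 10 bases before and 16 bases after the start was found in 48.6% of members and in 19.2% of other genes. In Rps19 the palindrome stands at 2 places of the printed stretch and in Rps6 at 1, downstream of an ETS core in the latter. The median log2 fold change at the start region was 0.22 with and 0.21 without the ETS core, 0.21 with and 0.22 without the palindrome, and 0.20 with and 0.22 without the YY1 core. It was 0.19 with and 0.29 without the GC box, and 0.12 in the 6 genes with and 0.22 in the 55 without the TATA box. These differences were not tested. A match describes the letters only.

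Start regions of ribosomal protein genes were among the most accessible parts of the genome in control nuclei. The start region is the most accessible region within 1000 bp of an annotated start, or of the gene bounds where no start is in the table, and 82 of the 91 genes had one. Without a start region were Rpl10l, Rpl31-ps12, Rpl32l, Rpl37rt, Rpl39l, Rpl3l, Rps19bp1, Rps25 and Rps27rt, most of them paralogs or retrocopies by name. Rps25 is a small subunit protein. Per kilobase, control levels had a median of 58.7 CPM, against 47.9 CPM for the start regions of all coding genes and 5.85 CPM for all regions. Of the 82 regions, 78 were in the top 10% of all regions, and 57 were above the median start region.

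Levels differed 30.7-fold within the family. The highest control level per kilobase was at Rps19, a gene mutated in Diamond-Blackfan anaemia, with 132.9 ± 15.2 CPM (SD, n = 3). Rps21 (127.3 ± 9.75 CPM), Rpl15 (122.2 ± 8.39 CPM) and Rpl13a (119.8 ± 11.8 CPM) followed (SD, n = 3). These 4 neighbours in the order lay within each other's spread. At the low end were Rps23rg1, a gene named as a retrogene, with 4.32 CPM, Rpl34-ps1 with 12.7 CPM and Rpl4 with 12.9 CPM per kilobase. The Rpl4 region overlapped Zwilch and lay 227 bp outside Rpl4, centred 559 bp before its start. A less accessible region, 64173335 to 64173735 on chromosome 9, holds the annotated Rpl4 start and is counted below among regions inside genes. Rps4x, the X-linked form of a small subunit protein, had 26.2 ± 4.65 CPM per kilobase (SD, n = 3). Of the start regions, 10 also lay within 1000 bp of the start of another coding gene, such as Mgat2 beside Rpl36al and Lias beside Rpl9, and cannot be assigned to one of the pair. Starts were known for 17492 of 21900 coding genes, so more may do so. Further start regions overlapped the bounds of another coding gene, such as Clhc1 at Rps27a, Pidd1 at Rplp2, Nkiras1 at Rpl15 and Card6 at Rpl37.

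In knockdown, 25 of the 82 start regions were higher and 2 were lower by edgeR's quasi-likelihood test at a Benjamini-Hochberg adjusted p under 0.05, computed over 191693 regions. Among start regions of all coding genes 36.3% were higher and 6.49% lower, and among all regions 15.4% and 12.7%. For the ribosomal protein genes the shares were 30.5% and 2.44%, and coding start regions of matched accessibility had 44.7% and 3.13%. The family's share of higher regions was thus near or below that of other starts. The median log2 fold change was 0.21, against 0.22 over all coding start regions, with 71 of 82 values above 0. At 31 start regions every knockdown library lay above every control library, and at 4 every one lay below, where 44.8% and 10.3% of all coding start regions did so. By subunit, 11 of 32 small subunit regions were higher and 0 lower (2 lower at an unadjusted p under 0.05 in edgeR, and 0 in DESeq2 after adjustment, where coding starts had 4.67%), and 14 of 50 large subunit regions were higher and 2 lower. DESeq2 called 19 of the 82 higher, against 29.7% of coding starts.

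The direction of the whole set moved with the scaling between libraries. Scaled by library totals in place of TMM, 0 start regions were higher in edgeR (3 at an unadjusted p under 0.05), 6 were lower, and 27 of 82 values were above 0, with a median of -0.056. Over all coding start regions the shares were then 5.39% higher and 15.1% lower, and 4.96% and 9.21% in those of matched accessibility. The median of all coding start regions moved along, to -0.041, and that of all regions to -0.27. Under loess curves 6 regions were higher and 9 lower (12.6% and 14.7% over coding starts), with a median of -0.048, and under reads in regions 17 and 5 (25.6% and 10.5%). Coding starts of matched accessibility had 11.85% and 14.58% under loess curves, and 31.65% and 6.02% under reads in regions. Without control replicate 2 or 3 the higher regions numbered 11 and 9, where 20.8% and 21.4% of coding starts were higher and 3.92% and 4.77% lower, and with knockdown replicate 2 alone 8, with 1 lower (10.5% and 4.07% over coding starts). Grouped by title, 0 passed in edgeR (0 also at an unadjusted p under 0.05), as did 0% of coding starts, with a median of 0.060. Summed over the start regions, levels were 2652, 2288 and 2220 CPM in control replicates 1 to 3 and 2951, 2663 and 2637 CPM in knockdown replicates 1 to 3. Control replicate 1 thus came close to the 2 lower knockdown libraries. In the median of the log2 ratios to the control mean it stood at 0.17, above knockdown replicates 2 and 3 at 0.14 and 0.12.

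**Figure D1:**
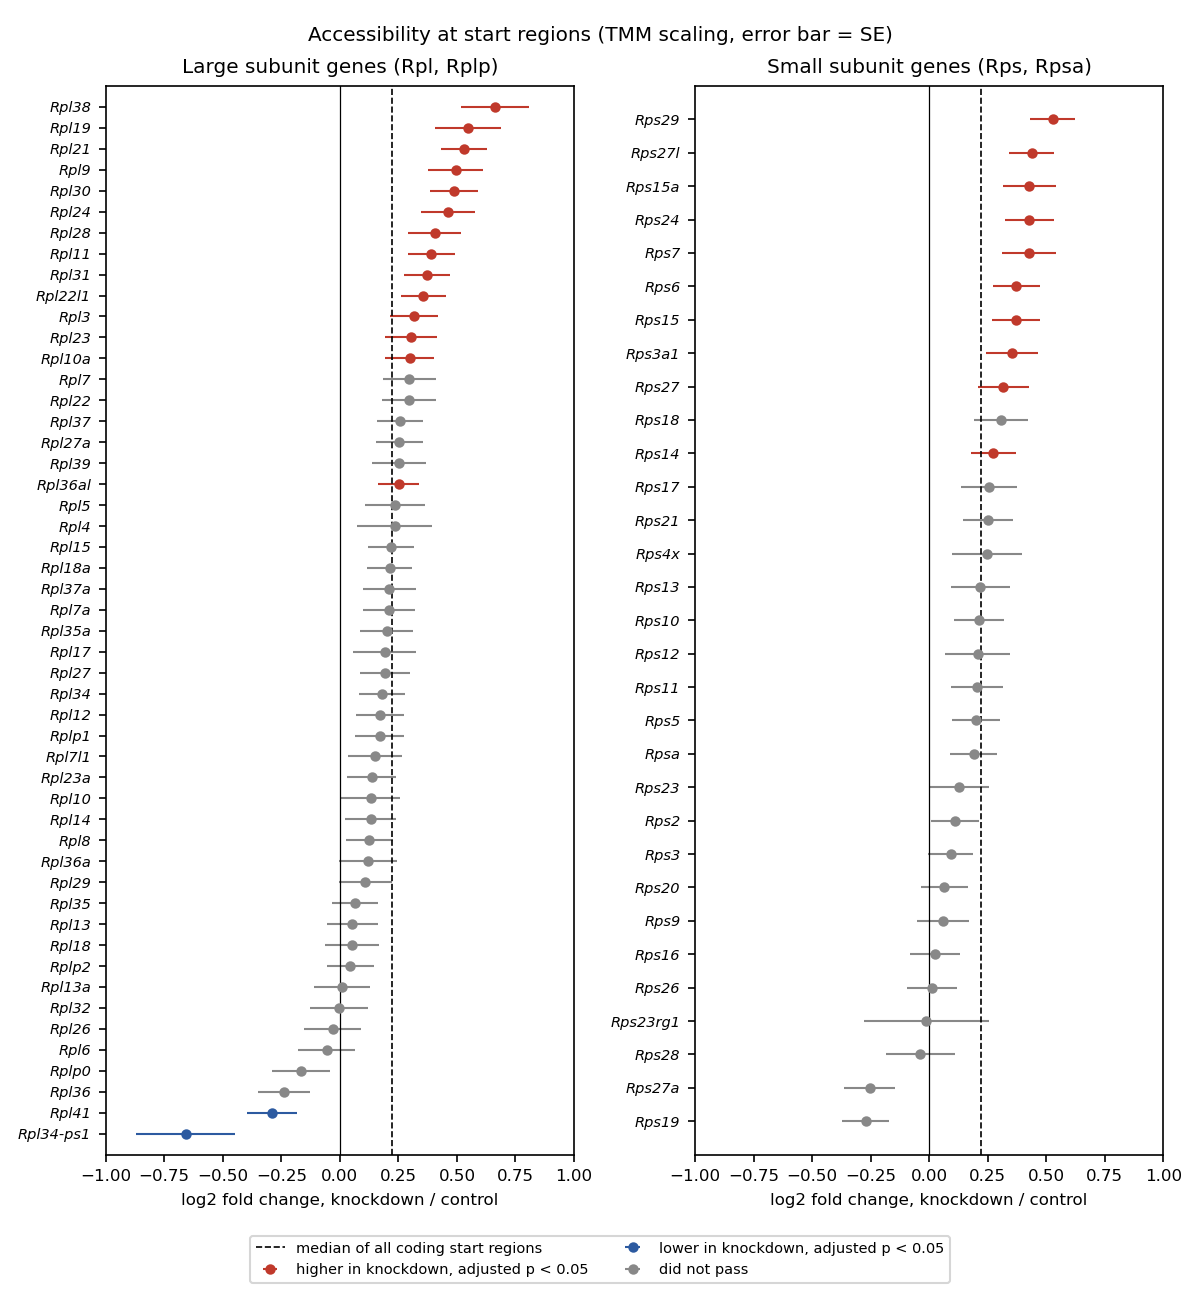
Log2 fold change of knockdown over control (x axis) with its standard error at start regions of ribosomal protein genes (y axis), 50 of the large and 31 of the small subunit, from the edgeR fit with TMM scaling. Coloured points passed an adjusted p under 0.05; the dashed line is the median of all coding start regions, 0.22, and most points lie close to it.

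Individual large subunit genes rose by more than that median. Rpl38, whose protein is known for its part in translating Hox messages, had 17.5, 18.8 and 21.5 CPM in control and 35.9, 21.9 and 33.8 CPM in knockdown at chromosome 11, 114668891 to 114669291, centred 511 bp past the start. Every knockdown library lay above every control library there, though knockdown replicate 2 only just. The log2 fold change was 0.66 (SE 0.14, edgeR adjusted p = 0.0028), and with knockdown replicate 2 alone it was 0.16 (edgeR adjusted p = 0.54). Rpl19 (98026955 to 98027355 on chromosome 11) had 12.99, 11.1 and 9.47 CPM in control and 17.5, 16.96 and 14.2 CPM in knockdown (log2 fold change 0.55, SE 0.14, edgeR adjusted p = 0.0077). Without control replicate 3 its adjusted p was 0.054. This region is centred 231 bp past the start. The Rpl19 region that holds an annotated start (98026472 to 98026872) rose by 0.27 on the log2 scale. Its groups overlapped and it did not pass (edgeR adjusted p = 0.18). Rpl21 had 35.7, 29.8 and 31.2 CPM in control and 46.2, 45.97 and 46.9 CPM in knockdown, the tightest knockdown group of these (log2 fold change 0.53, SE 0.097; adjusted p = 8.4e-04 in edgeR). Rpl9 and Rpl30 rose by 0.49 each on the log2 scale; the region of Rpl9 is shared with Lias.

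Of the small subunit genes, Rps29 rose most, from 51.2, 43.8 and 43.7 CPM in control to 70.2, 62.7 and 66.3 CPM in knockdown (chromosome 12, 69158398 to 69159434; log2 fold change 0.53, SE 0.096, edgeR adjusted p = 7.9e-04). Its groups did not overlap. Rps24, a gene of small subunit maturation, rose from 25.2, 24.6 and 20.6 CPM to 32.7, 30.9 and 30.7 CPM (log2 fold change 0.43, SE 0.10, edgeR adjusted p = 0.0059). Rps6, the substrate of the S6 kinases downstream of mTOR, had 34.6, 32.2 and 29.7 CPM in control and 42.0, 44.7 and 37.95 CPM in knockdown (log2 fold change 0.37, SE 0.10, edgeR adjusted p = 0.011); without control replicate 3 its adjusted p was 0.070. Of the 14 named start regions that were called, 0 stayed called with library totals except in the lower direction, and Rpl21 and Rps29 alone kept the call in the other 11 alternatives apart from grouping by title.

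The proteins that bind Mdm2 and so link ribosome assembly to p53 gave a mixed picture. Rpl11 rose from 31.7, 33.2 and 28.6 CPM to 43.6, 40.7 and 38.5 CPM, with no overlap between groups (log2 fold change 0.39, SE 0.099, edgeR adjusted p = 0.0070). Without control replicate 3 the adjusted p was 0.053. Rpl23 rose by 0.30 on the log2 scale (edgeR adjusted p = 0.046), from 23.2 ± 2.61 to 28.5 ± 2.61 CPM (SD, n = 3). It missed the threshold in DESeq2 (adjusted p = 0.094), with reads in regions (edgeR adjusted p = 0.13), and when one of control replicates 2 and 3 and knockdown replicates 1 and 2 was left out (0.054 to 0.19). Rpl5 had 23.5 ± 3.84 and 27.6 ± 4.08 CPM (SD, n = 3) and overlapping groups, and did not pass (edgeR adjusted p = 0.18).

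The stalk proteins, which recruit elongation factors to the large subunit, did not pass at the start with TMM. Rplp0 had 31.1, 23.5 and 23.6 CPM in control and 26.0, 21.3 and 21.9 CPM in knockdown (log2 fold change -0.17, SE 0.12). It was called lower with library totals (-0.43, edgeR adjusted p = 0.021) and loess curves (-0.38, edgeR adjusted p = 0.010). Rplp1 had 30.7 ± 3.93 and 34.4 ± 1.15 CPM, and Rplp2 36.6 ± 3.96 and 37.6 ± 0.919 CPM (SD, n = 3). Their groups overlapped. Under loess curves Rplp2 was called lower (-0.24, edgeR adjusted p = 0.025).

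Some members had lower levels in knockdown. Rpl41, whose product is a very short basic peptide, had 35.5, 29.7 and 28.4 CPM in control and 25.8, 24.6 and 25.7 CPM in knockdown (chromosome 10, 128549001 to 128549401). Each knockdown library lay below each control library, and the log2 fold change was -0.29 (SE 0.11, edgeR adjusted p = 0.047). DESeq2 did not call it (adjusted p = 0.093), nor did edgeR when any library but control replicate 3 was left out (adjusted p = 0.068 to 0.20). Rpl34-ps1, listed as protein-coding under a pseudogene symbol, averaged 5.09 ± 0.591 CPM in control against 3.22 ± 0.604 CPM in knockdown (SD, n = 3). Its log2 fold change was -0.66 (SE 0.21, edgeR adjusted p = 0.026), and it missed the threshold by DESeq2 (adjusted p = 0.058) and under loess curves (edgeR adjusted p = 0.062). Leaving out control replicate 1 or 2 or knockdown replicate 3 also ended it (edgeR adjusted p = 0.063 to 0.11). Rps27a, which encodes a fusion of ubiquitin and a small subunit protein, averaged 31.3 ± 4.34 CPM in control against 26.1 ± 1.09 CPM in knockdown (SD, n = 3), a log2 fold change of -0.25 that did not pass (edgeR adjusted p = 0.089). It was called lower with library totals, reads in regions and loess curves (edgeR adjusted p = 7.3e-04 to 0.0073).

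At Rps19 neighbouring regions went opposite ways. The region upstream of the start (chromosome 7, 24883919 to 24884319, centred 473 bp before it) had 59.8, 47.7 and 52.3 CPM in control and 47.2, 41.5 and 43.3 CPM in knockdown (log2 fold change -0.27, SE 0.10, edgeR adjusted p = 0.053). It was called lower with library totals, with reads in regions and with loess curves (-0.54, -0.38 and -0.59). The next region (24884599 to 24884999), which begins just past the start of the printed promoter and holds another annotated start, rose from 16.3 to 20.2 CPM, by 0.31 on the log2 scale and at the edge of the threshold (edgeR adjusted p = 0.0497). It was not called by DESeq2 (adjusted p = 0.10), in the 3 other scalings (edgeR adjusted p = 0.15 to 0.80), with knockdown replicate 2 alone (0.52) or once any library other than knockdown replicate 2 was left out (0.052 to 0.18).

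Further members with known roles beyond the ribosome had start regions that did not pass. Rpsa, also known as the laminin receptor precursor, had 24.8 ± 0.689 and 28.3 ± 2.05 CPM, and Rpl10, which joins the large subunit late in assembly, 22.7 ± 3.27 and 24.7 ± 3.91 CPM (SD, n = 3). Rps4x had 10.5 ± 1.87 and 12.4 ± 1.24 CPM (SD, n = 3). Rpl13a, a frequent reference gene, had 48.0 ± 4.74 and 48.2 ± 8.97 CPM (SD, n = 3), and was called lower under loess curves (-0.32, edgeR adjusted p = 0.0094). Of the paralogs, Rpl36al, Rpl22l1 and Rps27l were higher at the start, by 0.25, 0.36 and 0.44 on the log2 scale, and Rpl7l1 did not pass (0.15). The Rpl36al region, shared with Mgat2, had an adjusted p of 0.040 in edgeR and 0.051 in DESeq2, and its direction turned with library totals (-0.013) and loess curves (-0.10).

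Regions inside the genes had larger fold changes than their start regions. Besides the start regions, 31 regions in 25 genes overlapped the annotated bounds of a member, and are called second regions here, a class set after the values were seen. Of these, 20 were higher in knockdown and 0 lower by edgeR (1 lower at an unadjusted p under 0.05, and 0 lower in DESeq2, where 17 were higher, against 27.8% higher and 5.93% lower among short genes, defined next). Their median log2 fold change was 0.58. The same kind of region in other coding genes was higher in 12.9% and lower in 13% of 114395 cases, and in genes of up to 10000 bp in 32.3% and 8.5% of 2953 cases, with a median of 0.23. The share in ribosomal protein genes was 64.5%. Of regions centred 200 to 1000 bp past the start, 9 of 12 were higher and 0 lower in the family, against 44.9% and 1.67% of 3470 in other coding genes, with medians of 0.60 and 0.37. Mitochondrial ribosomal protein genes had 31 of 106 second regions higher, proteasome subunit genes 25 of 69 and translation factor genes 27 of 77. These lists had lower median levels, of 3.22, 1.98 and 3.29 CPM, against 6.72 CPM in the family. The median was 2.35 CPM in all other coding genes and 6.13 CPM in those of up to 10000 bp. The classes were not matched in accessibility, on which the power to call a region depends. Differences between these classes were not tested.

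In 22 of 29 pairs of a second region and the start region of the same gene, the second region had the larger log2 fold change, with a median difference of 0.48. By library, the median log2 ratio of the 31 regions to the control mean was 0.096, 0.039 and -0.11 in control and 0.58, 0.62 and 0.61 in knockdown. All 3 knockdown libraries were alike here. The part of cell types in these rises was not tested. In knockdown replicate 2 the 6 GABAergic markers summed to 78.38 CPM, against 48.17 to 64.14 CPM in control. Knockdown replicate 2, in which the astrocyte markers were close to control, gave a median of 0.61 and 15 higher regions when compared alone with control (16.9% higher and 4.13% lower in the other genes of up to 10000 bp). With library totals 11 second regions stayed higher and 1 was lower, against 15.3% and 18% in those genes, with medians of 0.32 and -0.03. Reads in regions gave 14 and 1 (26.2% and 12.3% there), and loess curves 17 and 1 (28.4% and 9.04%). Without control replicate 3, 13 were higher, against 23.6% higher and 6.92% lower in those genes. Grouped by title, 0 passed in edgeR, with a median of 0.50. At an unadjusted p under 0.05 in edgeR there were 9, beside 23035 of 192925 over all regions. Of the 31 regions, 4 held an annotated start, of which 2 were higher, and of the 22 known to lie away from one 15 were higher. Exons and introns were not told apart. Reads from exons may also match pseudogenes, of which the gene table lists 312 for this family, and how such reads were counted was not given in the sources used here.

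**Figure D2:**
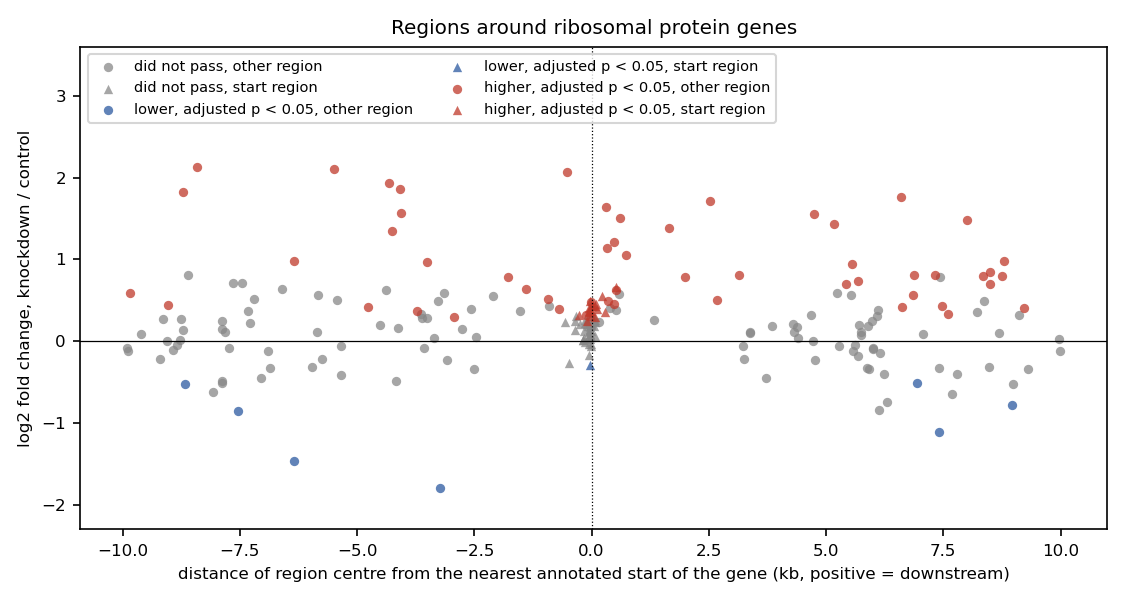
Log2 fold change of knockdown over control (y axis) of regions within 10 kb of the nearest annotated start of a ribosomal protein gene against the distance of their centre from it (x axis, kb, positive downstream). Triangles are start regions and circles other regions; colours give calls at an adjusted p under 0.05. Points just past the start reach values above 1, as do points elsewhere, such as a region near Rpl9 that lies inside Lias. The triangles stay below 0.7.

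Large rises at second regions were found in genes of both subunits. At Rps24 (chromosome 14, 24491163 to 24491563, centred 610 bp past the start) control libraries had 5.55, 5.04 and 4.54 CPM and knockdown libraries 12.1, 14.6 and 15.95 CPM. The groups stood far apart. The log2 fold change was 1.504 (SE 0.16, edgeR adjusted p = 4.6e-06), and a second region farther inside the gene, at 24495719, rose from 1.13 to 3.05 CPM (1.44, edgeR adjusted p = 7.7e-04). At Rps12, 317 bp past the start, levels were 1.22, 1.88 and 1.47 CPM in control and 5.14, 4.83 and 4.65 CPM in knockdown (log2 fold change 1.64, SE 0.23, edgeR adjusted p = 9.1e-05). Its start region had 22.3 ± 3.40 and 25.6 ± 5.35 CPM (SD, n = 3) and did not pass.

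Rpl6 showed the same contrast between its regions. The second region, 483 bp past the start (chromosome 5, 121204784 to 121205184), had 3.799, 3.67 and 3.27 CPM in control and 9.38, 7.85 and 7.58 CPM in knockdown (log2 fold change 1.21, SE 0.18, edgeR adjusted p = 1.6e-04). Its start region had 16.3, 14.8 and 13.97 CPM in control and 14.7, 15.2 and 13.4 CPM in knockdown, with overlapping groups (log2 fold change -0.06). Rps9, whose second region lies 1657 bp past the start, rose there by 1.38 on the log2 scale, from 2.47 ± 0.264 to 6.496 ± 0.539 CPM (SD, n = 3), and its start region had 26.8 ± 3.12 and 27.8 ± 2.71 CPM (SD, n = 3). Rpl34, a large subunit gene, rose from 5.02 ± 0.744 to 10.4 ± 0.398 CPM at the second region (SD, n = 3), 736 bp past the start, and its start region had 37.6 ± 1.96 and 42.6 ± 3.69 CPM (SD, n = 3) and did not pass. Rpsa rose from 2.21 ± 0.284 to 4.86 ± 1.31 CPM at its second region (SD, n = 3; 1.14).

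**Figure D3:**
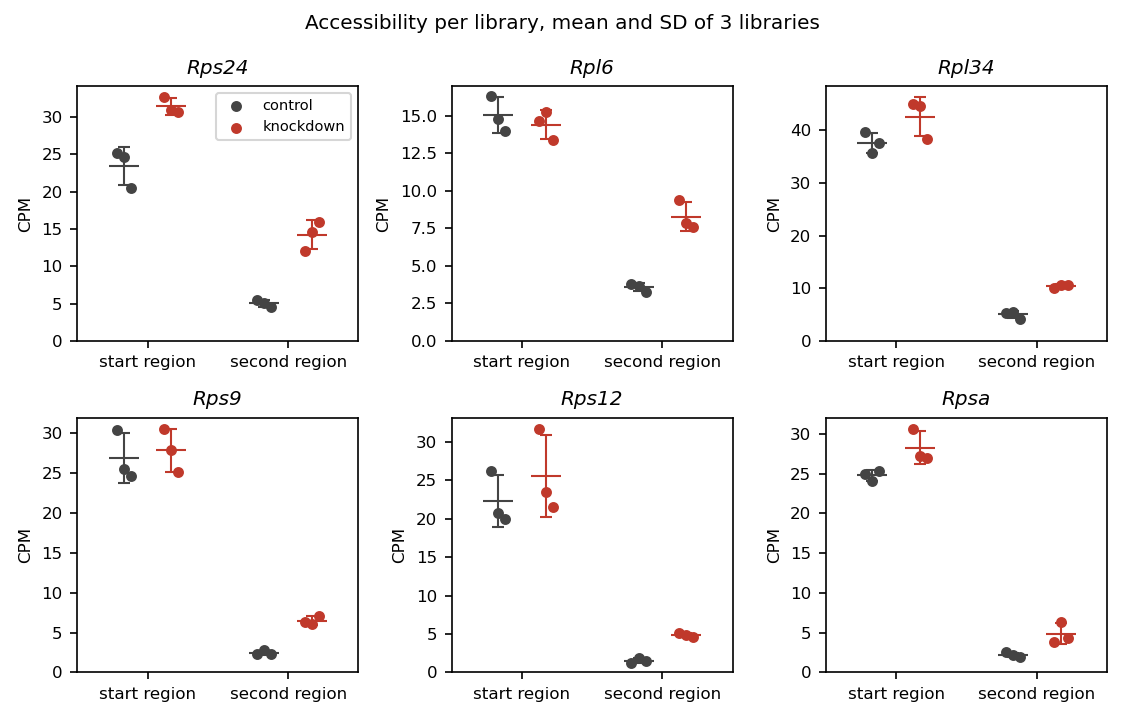
Accessibility in CPM (y axis, from 0) of the start region and the second region of 6 ribosomal protein genes in each of 3 control and 3 knockdown libraries; bars give the mean and SD of 3 libraries. The 6 genes were chosen after seeing large rises at their second regions. There the knockdown points lie above all control points in each gene (for Rps24, 12.1 to 15.95 against 4.54 to 5.55 CPM). This held for 23 of all 31 second regions, and for 1221 of 2953 such regions in other coding genes of up to 10000 bp. Start regions of Rpl6, Rps9, Rps12 and Rpl34 overlap between groups.

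Rpl34, Rpl32 and Rpl29 rose at second regions by 1.06, 1.05 and 0.90 on the log2 scale, and Rpl37rt by 1.72 (1.48 ± 0.313 to 4.83 ± 1.32 CPM; SD, n = 3). With those of Rps24, Rps12, Rps9, Rpl6 and Rpsa, these were among the 11 regions in 10 genes that kept the call in each of 12 alternatives other than grouping by title. The other 9 calls were lost in at least 1 of them, among them Rpl10 (0.62), Rpl22 (0.82), Rps15a (0.74) and Rpl7a (0.49), all without a call under library totals. A second region of Rpl22 at 152332937 was the only 1 of the 31 below 0 (-0.33, edgeR adjusted p = 0.070); it was called lower with library totals, reads in regions and loess curves (-0.59, -0.44 and -0.43) and without knockdown replicate 2 (-0.40). The start-spanning second region of Rpl38 rose by 0.48, though with knockdown replicate 2 alone it had 0.24 (edgeR adjusted p = 0.31).

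**Figure D4:**
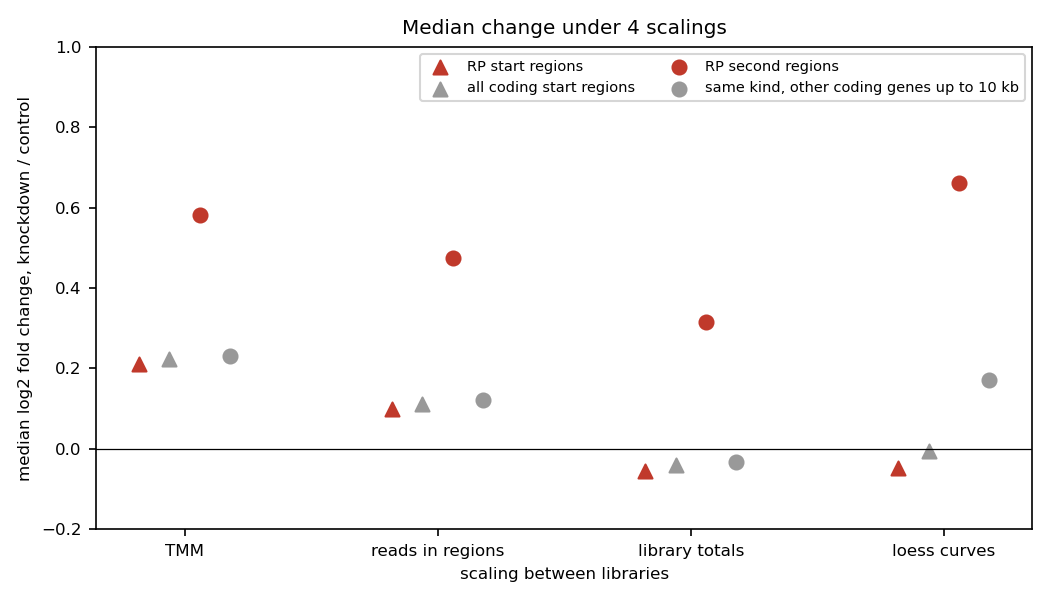
Median log2 fold change of knockdown over control (y axis) under 4 scalings between libraries (x axis) for the 82 start regions and 31 second regions of ribosomal protein genes and for the same kinds of region in other genes. The start-region medians of the family (0.21 to -0.056) follow those of all coding genes (0.22 to -0.041), and the second-region medians stay between 0.32 and 0.66.

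The genes also host small nucleolar RNAs, which guide modification of ribosomal RNA. Of 91 members, 30 held 59 such genes within their bounds. Start regions of the hosts were higher in 6 of 30 cases, and those of the other members in 19 of 52, beside 36.3% of all coding start regions. The difference was not tested.

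Regions beyond the genes completed the 362. They comprised 49 start regions of neighbouring coding genes, of which 14 were higher and 1 lower (36.3% and 6.49% over all coding starts), and 200 flanking regions, of which 52 were higher and 16 lower. Regions other than coding starts were higher in 13.8% and lower in 13.1% over the whole table. Flanking and second regions other than coding starts made up 229 regions, 31.4% higher and 6.99% lower. Regions of matched accessibility had 17.2% and 14.6%. Flanking regions inside another coding gene were higher in 29 and lower in 7 of 86 cases, and those outside any coding gene in 23 and 9 of 114. The largest rise lay 7834 bp from Rps29 and 1394 bp from Lrr1, from 0.380, 0.859 and 0.615 CPM to 4.31, 4.36 and 3.79 CPM (log2 fold change 2.65, SE 0.28; adjusted p = 5.3e-06 in edgeR). Another, 326 bp from Rpl9, inside Lias, had 0.760, 0.820 and 0.994 CPM in control and 3.33, 4.2 and 3.46 CPM in knockdown (2.07). Regions 8197 bp from Rpl5 and 4119 bp from Rplp2 rose by 2.13 and 1.93. The region near Rpl32l, inside Map7, rose by 2.10 with 14.9 CPM in knockdown replicate 1 against 1.98 and 4.19 CPM in the others, and had 0.26 with knockdown replicate 2 alone (edgeR adjusted p = 0.71).

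Losses in the flanks lay inside other genes and outside them. A pair of regions near Rps27rt, inside Osbpl10, fell by 1.79 and 1.47 on the log2 scale, the first from 3.39 to 0.991 CPM. A region inside Fam83e, 7153 bp from Rpl18, had -1.24, and one inside Efcab12, 5312 bp from Rpl32, had -1.10. A region 4037 bp from Rpl15, nearer to it than to another coding gene, fell from 4.25, 4.84 and 5.30 CPM to 2.12, 1.902 and 2.66 CPM (-1.11, edgeR adjusted p = 0.0015).

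Start regions of other genes of the translation machinery were counted in the same way. Ribosome biogenesis genes had 23 of 50 higher and 1 lower (median log2 fold change 0.26), translation factor genes 18 of 40 and 0 (0.29), RNA polymerase I genes 5 of 12 and 0 (0.29), and mitochondrial ribosomal protein genes 34 of 76 and 2 (0.26). Proteasome subunits, a comparison set of another complex, had 15 of 37 and 0 (0.23). These shares stand beside 36.3% higher over all coding start regions, and with library totals the higher counts were 2, 3, 0, 1 and 1. The lists had median levels of 26.05 to 35.05 CPM, against 23.7 CPM over all coding starts, and were not matched in accessibility. Coding starts matched in accessibility to the ribosomal protein start regions, which had a median of 30.4 CPM, were higher in 44.7% of cases. Among named members, Fbl, the methyltransferase of box C/D small nucleolar RNAs, rose from 24.2 to 35.7 CPM (0.57, edgeR adjusted p = 0.0021), and Ubtf, the RNA polymerase I activator, from 31.6 to 43.5 CPM (0.47, edgeR adjusted p = 0.0030). Neither passed with library totals.

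Genes that regulate ribosomal protein synthesis had 11 of 23 start regions higher and 0 lower, with a median of 0.26. Their median level was 33.5 CPM, and they too were not matched in accessibility. The largest was Eif4ebp1, the mTOR target that blocks cap-dependent initiation, which rose from 4.09 to 10.7 CPM (log2 fold change 1.39, SE 0.18, edgeR adjusted p = 3.8e-05) and passed with library totals (1.12, edgeR adjusted p = 4.6e-04). Gabpb1, a subunit of the ETS-family factor GABP, rose from 26.2 to 40.8 CPM (0.64) and also passed with library totals (0.37, edgeR adjusted p = 0.018). Myc rose from 16.6 to 25.8 CPM (0.63, edgeR adjusted p = 0.0014), Larp1 by 0.41 and Yy1 by 0.30, and these 3 did not pass with library totals (edgeR adjusted p = 0.066 to 0.84). Fau, a fusion gene of a ribosomal protein that the symbol rule leaves out, rose by 0.40. Its region is also the start region of Mrpl49, counted above, and cannot be assigned to one of the pair. It did not pass with library totals or loess curves (edgeR adjusted p = 0.42 and 0.24). Rack1, a ribosome-bound scaffold protein, did not pass (0.14).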

How the data were processed

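ATAC-seq libraries of sorted VTA nuclei, 3 control and 3 knockdown, were analysed as deposited. Picard, MACS2, BWA, SAMtools 1.9, Trimmomatic and FastQC, and the build mm10, are named without roles in the submitters' processing notes. How reads were counted or shifted, and how regions were made, was not given in the sources used here. Per the file headers, the authors deposited counts, RPKM and scores for 193148 regions. The deposited counts are unnormalized and were tested. The deposited RPKM values gave library totals, and the deposited score was not used. Libraries were grouped by genotype label. Values of 1 member and 1 related gene are not reported here, though both entered all counts.

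Counts were fitted over all regions that passed the package's low-count filter (191693) with edgeR 4.0.16 in R 4.3.3 (quasi-likelihood test, TMM, group as the only term), and called at a Benjamini-Hochberg adjusted p under 0.05. The fit was tested on simulated data: of regions changed 1.5-, 2- and 4-fold it recovered 9%, 32.8% and 98.5%. Only 67, 67 and 66 of 191693 regions were changed there, while 15.4% were called higher and 12.7% lower in the data. The adjustment was therefore stricter in the simulation, and these shares do not measure recovery in the data. Alternatives were DESeq2 1.42.0, no filter, library totals, reads in regions and loess curves (limma 3.58.1) in place of TMM, each library left out, and grouping by title. Also tried were a 2000 bp flank, fewer members and another choice of start region. Knockdown replicate 2 alone and the second regions were added after seeing the data. Matched accessibility means 10 classes of equal size by mean CPM.

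Members and lists were chosen with earlier results of these data known. Named regions are the 10 most accessible start regions, the 5 called start regions and 5 called other regions of largest fold in each direction, and members chosen by role; all second regions, genes of the other lists and the lowest levels were chosen after seeing their values. Gene bounds and promoter sequences came from RefSeq tables for GRCm38.p6.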

Additional observations from a re-analysis of the deposited data

How the results depend on the processing

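No paired analysis was possible because the replicate numbers follow accession order only and pair no libraries. Grouping by title gave 0 calls in edgeR for each set of ribosomal protein regions (at an unadjusted p under 0.05, 43 of 362 regions, 0 of 82 start regions and 9 of 31 second regions), with medians of 0.060 at start and 0.50 at second regions. All regions of the family, 111 higher and 19 lower, became 41 and 59 with library totals, 79 and 41 with reads in regions, 78 and 35 with loess curves and 57 and 9 with knockdown replicate 2 alone. A flank of 2000 bp left 59 and 4, and leaving out regions nearer to another coding gene 59 and 10, since fewer regions were tested. Without single libraries 65 to 109 were higher and 12 to 24 lower.

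Start regions, 25 higher and 2 lower, had 0 and 6 with library totals (median -0.056), 6 and 9 with loess curves (-0.048), 17 and 5 with reads in regions and 8 and 1 with knockdown replicate 2 alone. DESeq2 gave 19 and 0 (3 lower at an unadjusted p under 0.05), and the most accessible region over the gene bounds 25 and 1. Without single libraries 9 to 30 were higher and 0 to 2 lower, with medians of 0.14 to 0.28.

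Second regions, 20 higher and 0 lower, had 11 and 1 with library totals (median 0.32), 14 and 1 with reads in regions (0.48), 17 and 1 with loess curves (0.66) and a median of 0.61 with knockdown replicate 2 alone. Without single libraries 13 to 18 were higher and 0 to 1 lower, with medians of 0.45 to 0.69.

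With library totals, reads in regions and loess curves, higher start regions numbered 3, 10 and 3 for translation factors (18 with TMM), 2, 13 and 3 for ribosome biogenesis (23), 2, 7 and 3 for regulators (11), 1, 26 and 11 for mitochondrial ribosomal proteins (34), 0, 4 and 2 for RNA polymerase I (5) and 1, 10 and 5 for proteasome subunits (15). Lower ones numbered 0, 0 and 4, then 3, 2 and 7, then 0, 0 and 3, then 7, 3 and 13, then 1, 1 and 2, and 1, 1 and 1. Of 923 comparisons for 71 named regions, 733 kept the call or its absence, 162 lost the call, 22 gained it and 6 turned direction with a call in either fit. Among the 733 were 327 without a call in either fit, of which 51, in 19 regions, changed sign, 31 of them with library totals or loess curves. The 6 were the Rpl32l flank by title (-0.64), Rpl36al with library totals (-0.013) and loess curves (-0.10), and Rps14 (-0.055), Rplp2 (-0.24) and Rpl13a (-0.32) at the start with loess curves. The cause was not tested.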
